A study of Mus musculus with 6 samples.

Results

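The genes described here are 10 immediate early genes: the AP-1 subunits Fos, Fosb, Jun, Junb and Atf3, the transcription factor Egr1, the early response genes Ier2 and Ier3, the MAP kinase phosphatase gene Dusp1 and the mRNA decay factor gene Zfp36. They were taken by symbol from the deposited table, which holds 25251 genes, and each symbol matched 1 row. RNA was sequenced from 6 subcutaneous tumours of CT26, a colon carcinoma line of BALB/c origin grown in BALB/c mice and labelled WT. The tested tumours (3 samples) came from mice injected intraperitoneally with irinotecan (CPT-11, the prodrug of a topoisomerase I poison) at 25 mg/kg every 4 days. The control tumours (3 samples) came from mice given solvent, and all mice had been randomized at a tumour volume of 100 mm3. Neither mouse age nor the interval between the last injection and collection is stated there. The labels name neither separate mice nor batches, so each p-value reflects sample-to-sample spread that may be technical, and the series text speaks of duplicates although 3 samples per group are labelled.

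Immediate early genes are transcribed within minutes of a growth factor, cytokine, injury or stress signal, without new protein synthesis, through MAP kinases acting on serum response factor, ternary complex factors and CREB already bound to the promoter. Fos and Jun proteins pair through leucine zippers to form AP-1, while Dusp1 dephosphorylates MAP kinases and Zfp36 (tristetraprolin) brings AU-rich mRNAs to decay, so that the response is short. In tumours these genes are expressed by the cancer cells as well as by macrophages, neutrophils, endothelium and fibroblasts. The mRNAs themselves decay quickly and their levels are known to follow tissue handling as well as signalling.

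The 6 libraries held 13940650 to 15656894 reads over genes. Irinotecan replicate 1 stood apart: its log2 values correlated with those of the other libraries at 0.9324 to 0.9406 across genes, which are not independent replicates, whereas all other pairs reached 0.9748 to 0.9846. It also had reads on the fewest genes, 19040 against 20571 to 21426 in the others. The departure followed base composition in part. In irinotecan replicate 1 the median log2 difference from the control mean was -0.757 for genes above 60% GC and 0.176 for genes up to 50% GC. The same medians lay between -0.0894 and 0.0778 in the other 5 libraries. The member results are therefore given with and without that library. The labelled cell type was checked on 9 epithelial and colon markers found in the table: Krt20 had 1608 to 2098 normalized read counts and Krt8 and Krt18 had 36.96 to 149.3. Cdh1 had 11.15 to 37.99, while Epcam, Krt19, Cldn7, Vil1 and Cdx2 were at or near 0 (at most 6.081 in any library). These markers therefore did not settle the labelled type.

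Most of the 10 genes had lower mean levels in irinotecan tumours, by an amount that differed between members. Ier3 and Atf3 had 0.437 and 0.417 times the control level, Dusp1 had 0.698 times, and Fosb and Jun had 1.003 and 0.936 times. Junb and Zfp36 were far lower in irinotecan replicate 1 and only slightly lower in the other irinotecan libraries. With limma over 14639 genes, 0 of the 10 members passed an adjusted p under 0.05 in either direction (0.0% of all genes tested were called lower). At an unadjusted p under 0.05, 4 members were lower and 0 higher, where 3.08% of all genes tested were lower and 2.68% higher. edgeR on the recovered reads also called 0 members, with 3 lower at an unadjusted p under 0.05 (2.73% of all genes were lower and 3.24% higher by edgeR at that threshold). DESeq2 on the same reads called 1 member, Ier3, lower (0.124% of genes it tested were called lower and 0.193% higher). The authors' deposited table also called Ier3 lower (0.0753% lower and 0.111% higher). Its log2 fold changes of the members match those of DESeq2 here, so it adds no separate result.

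The members spanned a wide range of abundance, compared here as normalized reads per kb of gene length. Egr1 was the highest in both groups, at 1139 ± 311 per kb with irinotecan and 1460.0 ± 160 per kb in controls (SD, n = 3 each), and lay above 96.96% of genes tested. Ier2, Jun and Junb followed below the range of Egr1, and the range of each overlapped with that of the next in the order of means, although in controls Ier2 and Jun, with Junb between them, did not overlap. Dusp1, Zfp36 and Fos formed a lower tier of overlapping ranges, at 105, 91.7 and 69.2 per kb with irinotecan and 150.5, 143.5 and 102 per kb in controls. Ier3 lay above that tier without overlap in both groups, at 250.6 ± 91.8 per kb with irinotecan, below the range of Jun, and at 558 ± 121 per kb in controls, within the range of Jun. The 2 lowest members exchanged places. Atf3 lay at 13.4 to 25.9 per kb with irinotecan, below Fosb at 26.4 to 31.4, and at 39.9 to 54.4 per kb in controls, above Fosb at 26.2 to 33.2.

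**Figure D1:**
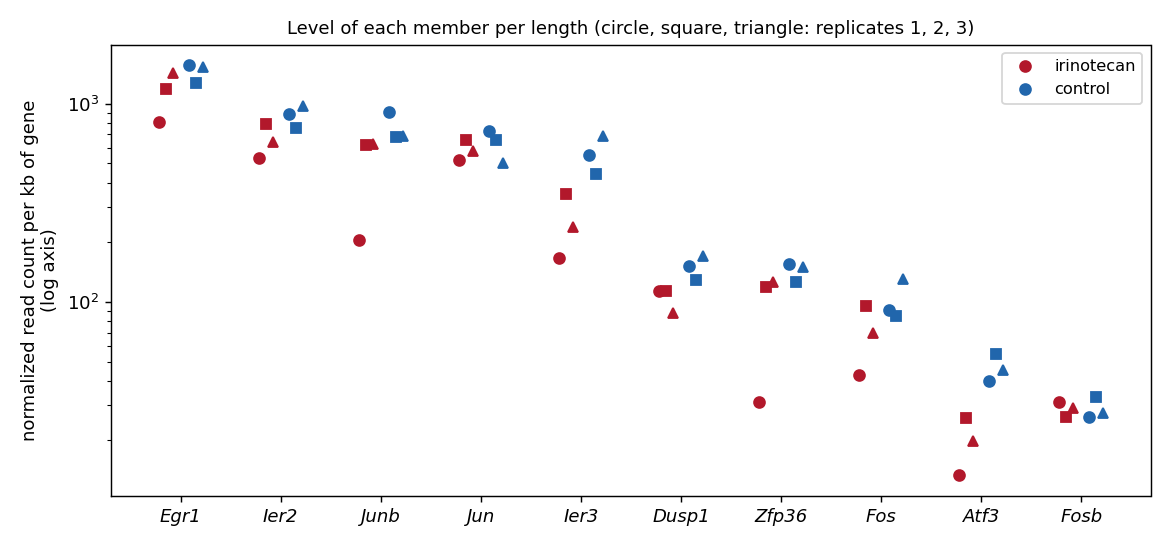
Normalized read count per kb of gene length (log axis) for the 10 members, ordered by the control mean, with irinotecan libraries in red to the left of control libraries in blue and 1 point per library. Egr1 is highest in both groups, and Atf3 lies below Fosb in irinotecan tumours and above it in controls.

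Among the AP-1 subunits, Fos, the partner that turns over fastest, had normalized read counts of 101, 224 and 163 in irinotecan replicates 1, 2 and 3 and of 213, 199 and 306 in control replicates 1, 2 and 3. Irinotecan replicate 1 was the lowest library, and irinotecan replicate 2 lay within the controls, so the groups overlapped. The limma log2 fold change of Fos was -0.60 (SE 0.313, 95% interval -1.32 to 0.12, adjusted p = 0.743), and it was -0.29 (SE 0.218) without irinotecan replicate 1. Fosb, a close paralogue of Fos, had 196, 165 and 181 normalized reads with irinotecan and 164, 207 and 171 in controls. The 6 libraries were interleaved, and the log2 fold change was 0.0045 (SE 0.188, 95% interval -0.43 to 0.43, adjusted p = 0.994) and -0.06 without irinotecan replicate 1. The interval includes changes of either sign.

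Jun, which can bind DNA as a homodimer or with a Fos protein, had 1649, 2081 and 1848 normalized reads with irinotecan and 2313, 2101.5 and 1593 in controls. Control replicate 3 was the lowest of all, the groups overlapped, and the limma log2 fold change was -0.10 (SE 0.173, 95% interval -0.49 to 0.30, adjusted p = 0.867), or -0.01 without irinotecan replicate 1. Junb, a Jun paralogue that is a weaker activator and often opposes Jun, had 472, 1428 and 1437 normalized reads with irinotecan and 2089, 1561 and 1575 in controls. All irinotecan libraries lay below all controls, but irinotecan replicates 2 and 3 lay close to the lower controls and only replicate 1 stood far off. The log2 fold change of Junb was -0.80 (SE 0.398, adjusted p = 0.743 by limma) with all libraries and -0.27 (SE 0.132, adjusted p = 0.57) without irinotecan replicate 1.

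Atf3, a stress-inducible bZIP protein of the ATF/CREB family that represses transcription as a homodimer, had 28.8, 55.9 and 42.6 normalized reads in irinotecan replicates 1, 2 and 3 and 86.0, 117 and 97.8 in control replicates 1, 2 and 3. All irinotecan libraries lay below all controls by a clear gap. These values rest on few reads, namely 28, 58 and 42 with irinotecan and 92, 112 and 101 in controls. The exact 95% Poisson intervals, which cover counting error only, ran up to 75.0 for the highest irinotecan library and down to 74.2 for the lowest control. The log2 fold change was -1.26 (SE 0.311, 95% interval -1.97 to -0.55), a level 0.417 times that of controls, with a limma unadjusted p = 0.00333 and adjusted p = 0.743. Without irinotecan replicate 1 it was -1.01 (SE 0.254, adjusted p = 0.182), and the authors' deposited table gives -1.24 with an adjusted p of 0.1304.

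Ier3 (IEX-1), a target of NF-kappaB and p53 that modulates cell survival and ERK signalling, had 188, 394 and 269 normalized reads with irinotecan and 621, 499.8 and 774 in controls. All irinotecan libraries lay below all controls. The limma log2 fold change was -1.195 (SE 0.282, 95% interval -1.84 to -0.55), or 0.437 times the control level, with an unadjusted p = 0.00257 that ranked 48th of all genes tested and an adjusted p = 0.743. In the authors' deposited table Ier3 fell, with a log2 fold change of -1.155 and an adjusted p of 0.02881. The call depended on the tool: limma and edgeR on the same libraries gave an adjusted p of 0.743 and 0.77, and DESeq2 gave 0.0298. The authors also used DESeq2, and its log2 fold change here was likewise -1.155, so the deposited call is not a separate one. Without irinotecan replicate 1 the limma log2 fold change was -0.93 (SE 0.2, adjusted p = 0.122), and DESeq2 gave an adjusted p = 0.0031.

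Ier2, a small nuclear protein of the early response, had 809, 1208 and 981 normalized reads with irinotecan and 1349, 1145 and 1489 in controls. Irinotecan replicate 2 lay above control replicate 2, so the groups overlapped. Its log2 fold change was -0.42 (SE 0.181, limma adjusted p = 0.743) and -0.28 (SE 0.136) without irinotecan replicate 1. Egr1 (chromosome 18, 34859823 to 34864984, plus strand, on GRCm38), a zinc finger activator induced through serum response elements, had 3632, 5292.5 and 6404 normalized reads with irinotecan and 7023, 5720.1 and 6898 in controls. Irinotecan replicate 3 lay within the controls and replicate 1 was the lowest, and the log2 fold change was -0.39 (SE 0.213, limma adjusted p = 0.743), or -0.16 (SE 0.124) without irinotecan replicate 1.

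Of the feedback genes, Dusp1 (MKP-1, which switches off p38, JNK and ERK) had 307, 305 and 237 normalized reads with irinotecan and 410.4, 349 and 458 in controls. All irinotecan libraries lay below all controls, and irinotecan replicate 1 was not the lowest. The log2 fold change was -0.52 (SE 0.183, 95% interval -0.94 to -0.10, limma unadjusted p = 0.0209, adjusted p = 0.743), and it was -0.58 (SE 0.167, adjusted p = 0.273) without irinotecan replicate 1. Zfp36 had 108, 412 and 435 normalized reads with irinotecan and 537, 439 and 518 in controls. The groups did not overlap, but irinotecan replicates 2 and 3 came close to the lowest control while replicate 1 lay far below it. Its log2 fold change of -0.88 (SE 0.478, limma adjusted p = 0.743) was -0.23 (SE 0.135, adjusted p = 0.633) without irinotecan replicate 1.

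**Figure D2:**
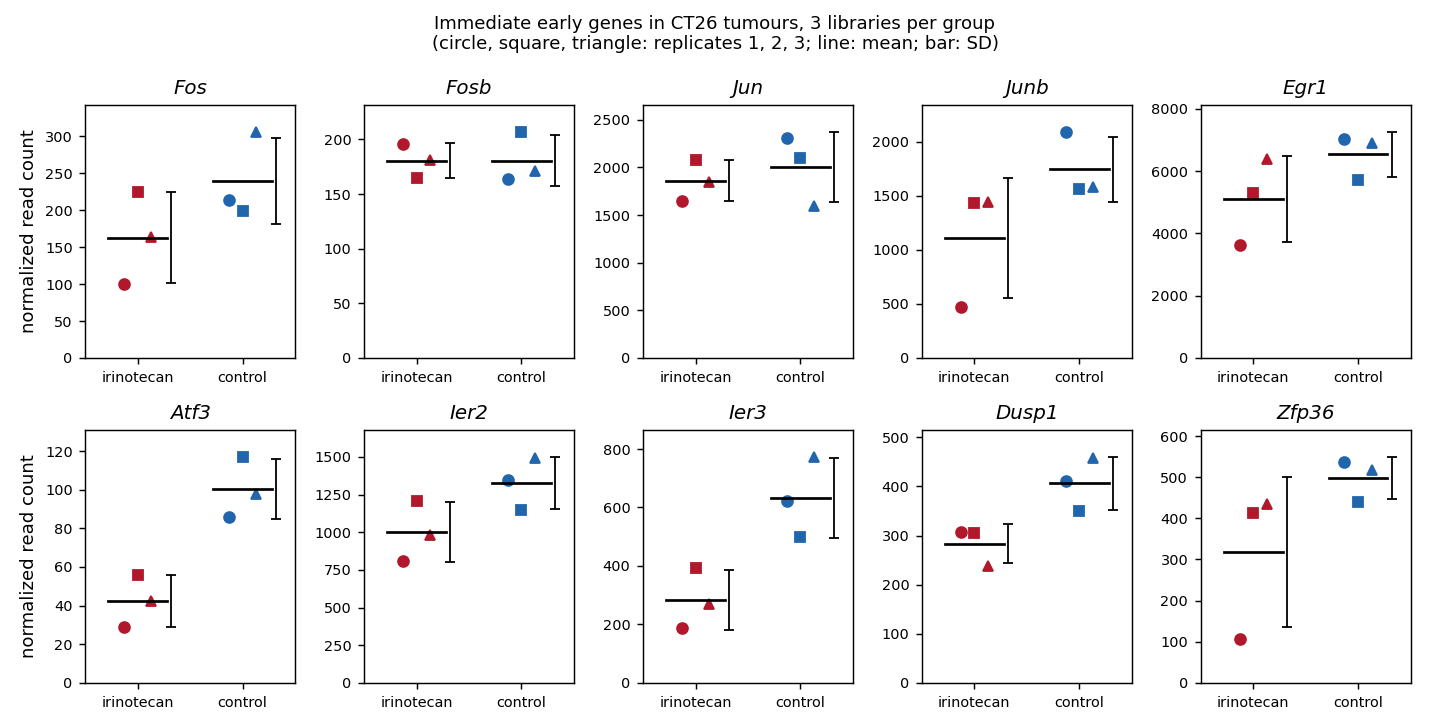
Normalized read counts of each member in the irinotecan (red, left) and control (blue, right) libraries, 3 each, with the mean as a line and the SD as a bar, on axes from 0. In Junb, Atf3, Ier3, Dusp1 and Zfp36 all irinotecan libraries lie below all controls, and in Fosb and Jun they interleave.

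Counted over the members, the groups did not overlap in 5 of 10, all of them lower with irinotecan (7.89% of all genes tested had all irinotecan libraries below all controls, and 6.68% above). Of the 10 log2 fold changes 9 were negative (51.8% of all genes tested), and the median was -0.56 beside -0.01 over all genes. Irinotecan replicate 1 was the lowest of the 6 libraries for 7 members (36.8% of all genes tested). Irinotecan replicates 1, 2 and 3 lay below all 3 controls for 8, 6 and 7 members, beside 41.2%, 25.3% and 29.0% of all genes tested. Irinotecan replicates 2 and 3 taken alone lay below all 3 controls for the same 5 members that had no overlap (13.7% of all genes tested). Without irinotecan replicate 1 all 10 log2 fold changes were negative (50.4% of all genes), with a median of -0.27, and 3 members, Atf3, Ier3 and Dusp1, had an unadjusted limma p under 0.05 and were lower (5.15% of all genes tested were lower and 4.34% higher). After adjustment 0 members were called without that library, beside 0.0% of all genes lower and 0.0137% higher.

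The members differ in GC content, a property along which irinotecan replicate 1 departed. Junb and Ier2 have 62.7% and 60.9% GC, Atf3 has 50.9%, and the others have 52.9% to 56.0%, where the median of all genes tested was 50.1%. For each library the expected log2 difference at a given GC content and length was estimated over all genes (called the trend here). In irinotecan replicate 1 it came to -1.13 for Junb, whose measured log2 difference from the control mean was -1.87, and to -1.05 for Ier2, measured at -0.71. For Zfp36 the trend was -0.36 and the measured difference -2.19, and for Atf3 and Ier3 the trends were -0.30 and -0.62 beside measured differences of -1.76 and -1.72. Removing the trend left log2 fold changes of -1.16 (SE 0.275) for Atf3, -0.99 (SE 0.219) for Ier3, -0.75 (SE 0.393) for Zfp36, -0.39 (SE 0.167) for Junb and -0.06 (SE 0.209) for Ier2, all with a limma adjusted p of 0.584 or more. The median over the members was then -0.40, with 8 of 10 negative (47.1% of all genes). At an unadjusted p under 0.05, 3 members, Junb, Atf3 and Ier3, were lower (3.17% of all genes tested were lower and 3.77% higher).

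**Figure D3:**
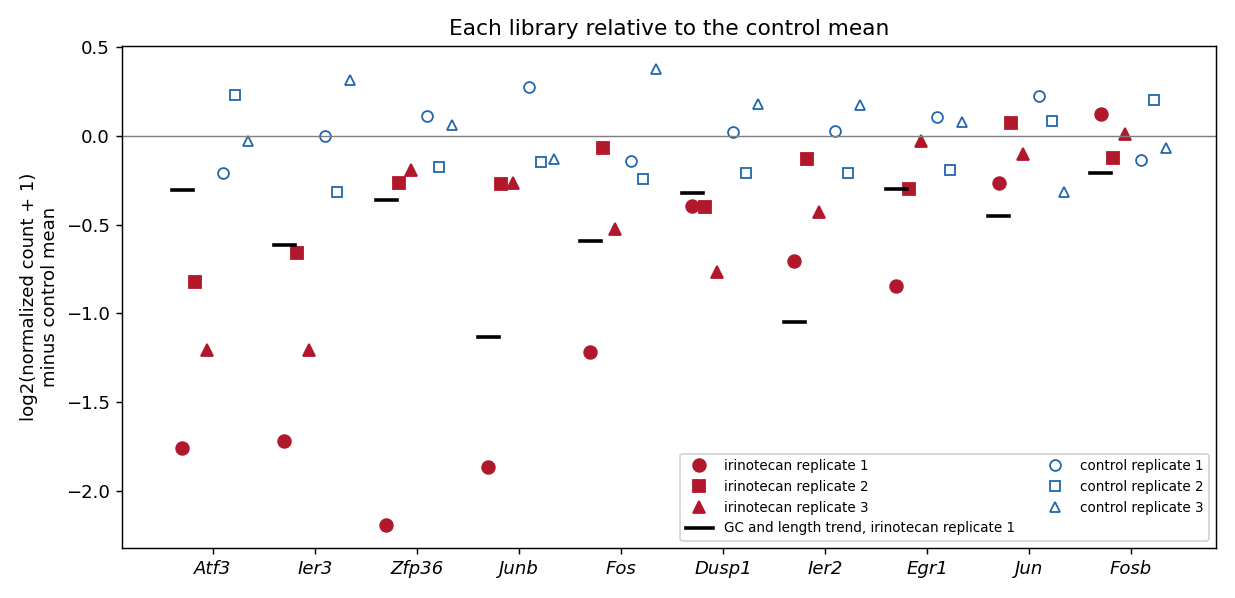
Log2(normalized count + 1) of each library minus the control mean, for irinotecan libraries (filled red, left) and control libraries (open blue, right), with members ordered by fold change. The black bar is the GC and length trend of irinotecan replicate 1, which lies near -1.13 for Junb and -1.05 for Ier2 and which the measured value of Zfp36 (-2.19) exceeds by far.

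**Figure D4:**
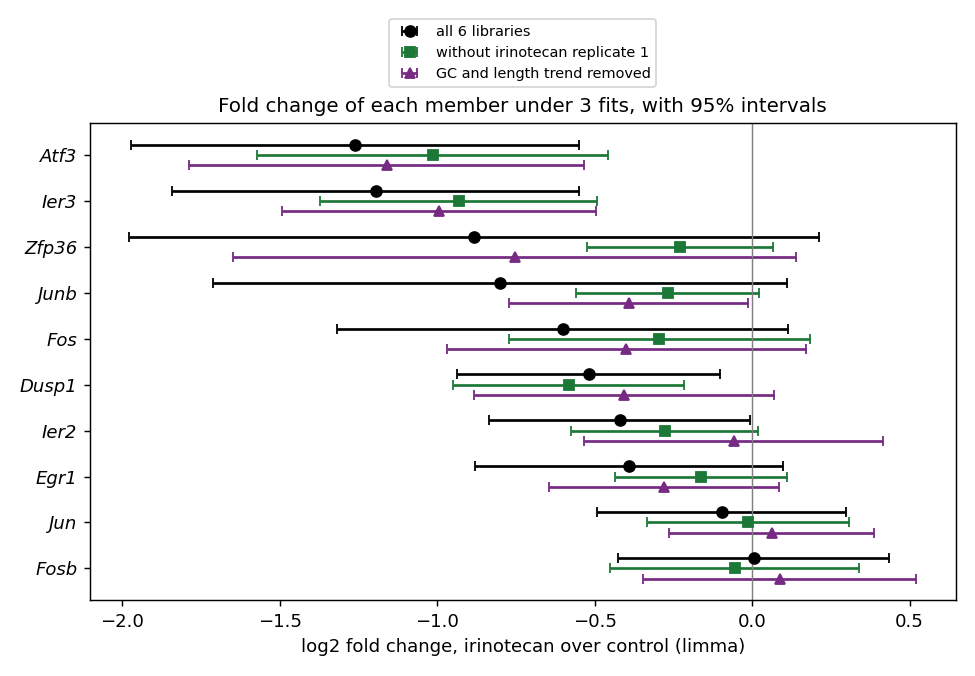
The log2 fold change of each member, irinotecan over control, with its 95% interval from limma, using all 6 libraries (black), without irinotecan replicate 1 (green) or after subtracting each library's trend (purple). The intervals of Atf3 and Ier3 lie below 0 in all of these fits, while the estimates of Junb and Zfp36 move to -0.27 and -0.23 without irinotecan replicate 1.

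On GRCm38 the members lie apart, except that some share a chromosome. Ier3 (35821684 to 35822923, plus strand) and Dusp1 (26505590 to 26508519, minus strand) share chromosome 17, Junb (84974484 to 84978718) and Ier2 (84661331 to 84662852) share chromosome 8 on the minus strand, and Fosb (19302696 to 19310051) and Zfp36 (28376784 to 28380253) share chromosome 7 on the minus strand. Atf3 lies on chromosome 1 from 191170296 to 191218039, Jun on chromosome 4 from 95049034 to 95052222 and Fos on chromosome 12 from 85473890 to 85477273. Whether the counting used strand is not stated, so reads cannot be assigned between a member and an antisense gene where exons overlap. By the exons of GENCODE M21, Junb shares 173 bases with Prdx2, Jun shares 232 with the antisense RNA Junos and Zfp36 shares 125 with Gm44710. Dusp1 shares 11 with Ergic1 by those exons, but the deposited span of Ergic1 (26561489 to 26656931) does not overlap that of Dusp1. Gm44710 had at most 12.6 normalized reads, and Prdx2 had a log2 fold change of -0.04 (limma adjusted p = 0.932).

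The promoters of the 5 members whose groups did not overlap are shown beside that of Fosb, whose groups interleaved, since these genes are known to be switched on through short promoter sites. Each line gives the 150 bases before the RefSeq start on the gene's own strand, from the reference genome (GRCm38.p6), not from the tumours, and capitals mark every match to the sites named below.
Ier3: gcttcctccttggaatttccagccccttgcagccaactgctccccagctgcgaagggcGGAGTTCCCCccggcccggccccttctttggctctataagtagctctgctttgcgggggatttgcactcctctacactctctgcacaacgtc
Atf3: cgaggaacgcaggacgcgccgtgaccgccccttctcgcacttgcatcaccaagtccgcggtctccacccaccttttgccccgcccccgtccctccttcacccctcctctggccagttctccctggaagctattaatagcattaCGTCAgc
Dusp1: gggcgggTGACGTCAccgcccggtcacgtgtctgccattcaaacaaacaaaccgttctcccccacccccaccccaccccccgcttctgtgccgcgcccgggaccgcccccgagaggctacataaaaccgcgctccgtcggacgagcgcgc
Junb: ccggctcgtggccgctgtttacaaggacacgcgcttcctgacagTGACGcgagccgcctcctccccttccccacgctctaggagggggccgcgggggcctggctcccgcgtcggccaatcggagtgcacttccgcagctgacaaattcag
Zfp36: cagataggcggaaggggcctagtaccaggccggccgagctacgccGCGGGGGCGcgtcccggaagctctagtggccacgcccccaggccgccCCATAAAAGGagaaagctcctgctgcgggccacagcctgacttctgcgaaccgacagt
Fosb: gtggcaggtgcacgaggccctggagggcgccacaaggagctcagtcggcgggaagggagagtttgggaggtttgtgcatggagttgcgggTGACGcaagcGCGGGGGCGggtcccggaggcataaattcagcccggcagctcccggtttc

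These windows lie at chr17:35821563-35821712 for Ier3, chr1:191183334-191183483 for Atf3, chr17:26508473-26508622 for Dusp1, chr8:84978749-84978898 for Junb, chr7:28379229-28379378 for Zfp36 and chr7:19310046-19310195 for Fosb. The windows of Atf3 and Zfp36 lie wholly inside the deposited spans of these genes. The RefSeq start used for each is therefore internal to the span, and bases before the outer end of the gene were not shown. In the full windows of 300 bases (250 before the start and 50 after it), which RefSeq's table gives for 8 of the 10 members, matches were sought on both strands. Sites farther upstream were not sought, so a site not found here may still lie outside the window. The cAMP response element TGACGTCA was found in Dusp1 alone of the 8, and in 1.79% of 32851 promoters. The shorter core TGACG, which lies within it, was found in 5 (Atf3, Fosb, Junb, Fos and Dusp1) and in 20.8% of promoters. The CArG box, the core of a serum response element, was found in Zfp36 alone, beside 1.63% of promoters, and the Egr site GCGGGGGCG in Zfp36 and Fosb, beside 2.91%. The NF-kappaB site was found in Ier3, Fos and Fosb, beside 4.51%, the Jun site TGACATCA in Jun, beside 3.62%, and the AP-1 site TGANTCA in none of the 8, beside 7.81%. TATAAA was found in Fos and Junb, beside 13.6% of promoters. It began at position -33 relative to the start in Fos, but at position 1, after the printed bases, in Junb. Egr1 and Ier2, the other members, had no such window and were not searched. Within these windows, no single one of these sites was present in all 5 promoters of the members without overlap and absent from that of Fosb. These promoters were picked by the values of the genes and set against Fosb alone, so whether any site goes with lower levels was not tested.

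The members did not share 1 pattern over the libraries. Likeness was measured as the root mean square difference of log2 values over the 6 libraries, each gene taken relative to its own mean. Junb and Zfp36 were the closest pair, at 0.166, and share the deep drop in irinotecan replicate 1. Egr1 and Ier2 were closest to each other at 0.193, Atf3 and Ier3 at 0.283, and Fosb and Jun at 0.255. Fos and Dusp1 were each closest to Ier2, at 0.222 and 0.212, and Fosb and Zfp36 were the farthest pair, at 0.863. The 5 protein-coding genes outside the members whose pattern lay closest to Fos were Slc29a2 (0.0886), Rgs4 (0.0893), Eef1e1 (0.0973), Yrdc (0.106) and Rpa2 (0.113). The median over protein-coding genes was 0.539, but these 5 were picked as the smallest differences and lie below it for that reason. Rgs4 rests on only 11 to 35 reads per library.

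Around these members, other genes of the immediate early response were also mostly lower, and none passed the limma threshold. Of 30 further immediate early genes listed, 27 were tested and 20 had a negative log2 fold change, with a median of -0.29 beside -0.01 over all genes (-0.07 after subtracting the trend). At an unadjusted limma p under 0.05, 6 were lower and 0 higher. Over all genes tested 3.08% were lower and 2.68% higher, and these shares stand beside the counts of every list below. The growth regulator Myc had 724, 2164 and 1912 normalized reads with irinotecan and 3058, 2385 and 2875 in controls, without overlap (log2 fold change -0.94, SE 0.371, limma adjusted p = 0.743, and -0.44 without irinotecan replicate 1). Nr4a1, an orphan nuclear receptor, had 233, 402 and 402 normalized reads with irinotecan and 553, 452 and 501 in controls, also without overlap (log2 fold change -0.58, SE 0.233, and -0.31 without irinotecan replicate 1). Cyr61, a matricellular protein gene induced by serum and by YAP, had 278, 552 and 491 normalized reads with irinotecan and 691, 788 and 955 in controls (log2 fold change -0.93, SE 0.263), and it was picked out after its values were seen. Klf4 had a log2 fold change of -0.40 (SE 0.147) that was -0.03 after subtracting the trend. Ier5 had -0.69 (SE 0.319), or -0.31 without irinotecan replicate 1, and Egr2 had -0.13 (SE 0.265), or -0.37 without it. Btg2 had 0.14 (SE 0.201), and Klf6 had 0.25 (SE 0.212), or 0.0083 without that library, the limma adjusted p being 0.743 or more in each.

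The other AP-1 subunits showed no common direction with all libraries: of 11 tested 6 were negative, with a median of -0.08, and 0 passed by limma. Without irinotecan replicate 1 the median was -0.06 and 3 of the 11 were positive. Maff, a small Maf protein gene, was the 1 subunit lower at an unadjusted p under 0.05, with 489.8, 581 and 624 normalized reads with irinotecan and 888, 949 and 882 in controls (log2 fold change -0.69, SE 0.144, limma adjusted p = 0.662). Its groups did not overlap, and without irinotecan replicate 1 its log2 fold change was -0.59. Jund, whose GC content is 67.1%, had 143, 536 and 481 normalized reads with irinotecan and 487, 532 and 571 in controls, and its log2 fold change of -0.67 (SE 0.446) was -0.06 without irinotecan replicate 1. Fosl1 had -0.65 (SE 0.407), or -0.10 without that library, while Fosl2 had 0.22 (SE 0.209), or -0.03 without it.

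Genes known as AP-1 targets had a negative log2 fold change in 12 of 13 tested, with a median of -0.54 (-0.35 without irinotecan replicate 1, -0.22 after subtracting the trend). At an unadjusted p under 0.05, 7 were lower and 0 higher, with 0 called by limma. Among them were the matrix metalloproteinase genes Mmp3, Mmp9 and Mmp13, their inhibitor Timp1, the secreted Spp1 (osteopontin) and the chromatin protein Hmga1, named after their values were seen. The groups overlapped for Mmp13 and Timp1. Hmga1, a GC-rich gene (62.6%), had a log2 fold change of -0.54 that was -0.13 after subtracting the trend. Mmp9 had 147, 112 and 116 normalized reads with irinotecan and 330.0, 248 and 181 in controls (log2 fold change -0.98, SE 0.255). Its groups did not overlap, irinotecan replicate 1 was not its lowest library, and its limma adjusted p was 0.743.

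Upstream of the members, MAP kinase pathway genes had no common direction. Of 24 tested, 11 had a negative log2 fold change, with a median of 0.02 (-0.0065 without irinotecan replicate 1), and 0 passed by limma. The p38 target kinase gene Mapkapk2 was the 1 gene of the 24 lower at an unadjusted limma p under 0.05, beside 3.08% of all genes tested. Its log2 fold change was -0.42 (SE 0.162), and -0.25 without irinotecan replicate 1. The p38 gene Mapk14 had 0.18 (SE 0.141), or 0.08 without irinotecan replicate 1, and the ERK1 gene Mapk3 had -0.56 (SE 0.312), or -0.14 without it. Among 7 genes of serum response factor and its cofactors the median was -0.03, with 0 at an unadjusted p under 0.05, and Srf itself had -0.48 (SE 0.294), or -0.11 without irinotecan replicate 1. Growth factor receptors and ligands had a median of 0.05 over 18 tested, 11 of them positive, but without irinotecan replicate 1 the median was -0.06 and 5 were positive. Of these Egfr (-0.78, SE 0.295) and Pdgfb (-0.89, SE 0.206) were lower and Erbb2 (0.44, SE 0.188) higher at an unadjusted p under 0.05, and 0 passed by limma. Without irinotecan replicate 1 Erbb2 had 0.27.

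Among 16 other MAP kinase phosphatase and Sprouty genes, 10 had a negative log2 fold change, with a median of -0.07, and 0 passed by limma. Without irinotecan replicate 1 the median was -0.16 and 3 of the 16 were positive. At an unadjusted p under 0.05, 4 phosphatase genes were lower, named after their values were seen. Dusp5, an ERK phosphatase of the nucleus, had 718, 745 and 655 normalized reads with irinotecan and 1149, 993 and 1061 in controls (log2 fold change -0.60, SE 0.133, limma adjusted p = 0.667, and -0.61 without irinotecan replicate 1). Its groups did not overlap, and the 3 irinotecan libraries lay close together. Dusp10, Dusp9 and Dusp7 had -0.55 (SE 0.186), -0.61 (SE 0.176) and -0.33 (SE 0.141). Dusp6, an ERK phosphatase of the cytoplasm, had 4516, 4783 and 4421 normalized reads with irinotecan and 4837, 4753 and 4536.5 in controls, overlapping, with a log2 fold change of -0.04 (SE 0.119), and Spry2 had 0.16 (SE 0.301), which turned to -0.23 without irinotecan replicate 1.

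Transcripts that Zfp36 is known to bring to decay had a negative log2 fold change in all 11 tested of 13 listed, with a median of -0.79 (-0.51 without irinotecan replicate 1, where 1 was positive). At an unadjusted p under 0.05, 4 were lower, Ier3 among them since it is in both lists, and 0 passed by limma. The others were cytokine and chemokine genes. Il1b had 120.1, 277 and 230.1 normalized reads with irinotecan and 332, 493 and 704 in controls (log2 fold change -1.30, SE 0.362), without overlap. Cxcl1 had a log2 fold change of -1.06 (SE 0.402) and Cxcl2 one of -2.09 (SE 0.846). The groups overlapped for Cxcl2, and control replicate 3 was its highest library at 226 normalized reads. Of 13 genes for the rest of the Zfp36 family and its decay partners 7 were negative, with a median of -0.04 (0.0028 without irinotecan replicate 1) and 0 at an unadjusted p under 0.05. The paralogues Zfp36l1 and Zfp36l2 had -0.34 (SE 0.181) and -0.31 (SE 0.164), or -0.18 and -0.16 without irinotecan replicate 1, with all irinotecan libraries below all controls (limma adjusted p = 0.743).

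Among NF-kappaB feedback genes 9 of 12 tested were negative, with a median of -0.14 (-0.08 without irinotecan replicate 1), and the inhibitor gene Nfkbia had -0.42 (SE 0.168), or -0.28 without that library, the 1 gene lower at an unadjusted p under 0.05. Genes of the integrated stress response, in which Atf3 lies downstream of Atf4, were negative in 9 of 12 tested, with a median of -0.36. That median was -0.16 without irinotecan replicate 1 and -0.09 after subtracting the trend. In both lists 0 genes passed by limma. Ddit3 (CHOP) had 559, 616 and 563 normalized reads with irinotecan and 1013, 658 and 771 in controls (log2 fold change -0.47, SE 0.179, limma adjusted p = 0.743, and -0.25 after subtracting the trend). Ppp1r15a (GADD34), which restores translation after stress, had 522, 479.6 and 358 with irinotecan and 956, 614 and 958 in controls, without overlap (log2 fold change -0.88, SE 0.225), and -0.99 without irinotecan replicate 1. Cebpb, a GC-rich gene (67.2%), had -1.05 (SE 0.399), or -0.54 without that library and -0.39 after subtracting the trend, and with Ddit3 and Ppp1r15a made up the 3 genes lower at an unadjusted p under 0.05.

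Neutrophil and endothelial markers were lower alongside these genes, whereas the lists of other cell types differed. In bulk tissue fewer cells of a type and less RNA per cell cannot be told apart. The summed level of 11 neutrophil markers was 365 to 491 normalized reads in irinotecan libraries and 637 to 1168 in controls, and 9 of 9 tested had a negative log2 fold change. Its lowest markers, Retnlg and Cd177, were at 0 in at least 1 library and reached 9.68 and 6.78. The sum of 12 endothelial markers was 2341 to 3129 with irinotecan and 3629 to 3948 in controls, with 11 of 12 negative. Macrophage and monocyte markers summed to 13004, 29881 and 26353 in irinotecan replicates 1, 2 and 3 and to 27950.0 to 30159 in controls, so that replicates 1 and 3 lay below all controls and replicate 1 far below. Single markers differed from the sum: Cd163 had a log2 fold change of -1.10 (SE 0.204, limma adjusted p = 0.662, DESeq2 adjusted p = 0.00498, and -1.14 by limma without irinotecan replicate 1) and Mrc1 one of -0.74 (SE 0.18, -0.59 without it). Of all 12 macrophage and monocyte markers 10 were negative, with a median log2 fold change of -0.38. Without irinotecan replicate 1 that median was -0.07 and 5 of the 12 were positive. In 4 of 12 all irinotecan libraries lay below all controls (7.89% of all genes tested). Fibroblast markers summed to 35817 to 39951 with irinotecan and 31434 to 42859 in controls, and overlapped. T cell markers summed to 361, 681 and 576 in irinotecan replicates 1, 2 and 3 and to 372 to 536 in controls, so that irinotecan replicates 2 and 3 lay above all controls, and without replicate 1 all 10 markers were positive (median log2 fold change 0.37, against 0.17 with it). Skeletal muscle markers summed to 228 to 1005 with irinotecan and 96.2 to 466 in controls and overlapped, but 9 of 9 tested were positive, with a median of 0.87 (1.65 without irinotecan replicate 1). No marker of these lists was at 0 in every library, and the part of any of these cell types in the lower immediate early levels was not tested.

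**Figure D5:**
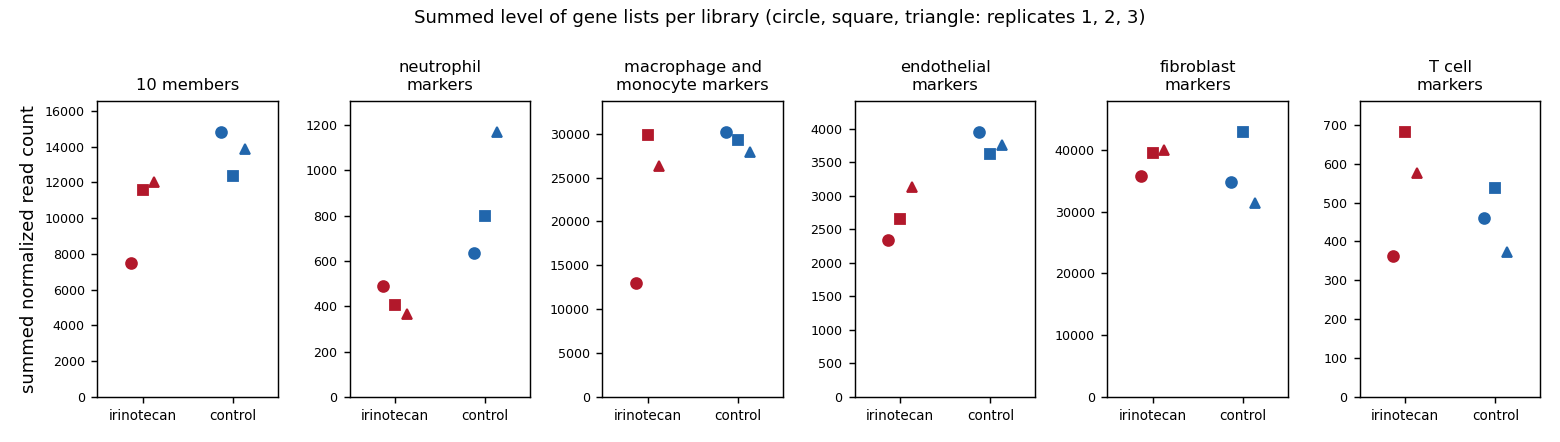
Summed normalized read counts per library for the 10 members and for marker lists of 5 cell types, irinotecan (red, left) and control (blue, right), on axes from 0. Neutrophil and endothelial sums lie lower in all irinotecan libraries, and the macrophage and monocyte sum is lowest in irinotecan replicate 1 (13004).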

How the data were processed

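Per the submitters' processing notes, the authors worked on GRCm38 (mm10) with HISAT2 2.0.5, DESeq2 1.20.0, featureCounts 1.5.0-p3, fastp and CASAVA. The deposited library columns hold a normalized signal, gene read counts divided by 1 factor per library. Whole reads were recovered from them: 100% of values were whole multiples of the library's smallest, at a tolerance of 1e-06. The authors' deposited table also gives group means, log2 fold changes and p-values, per the file headers.

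The test was limma 3.58.1 (R 4.3.3) on log2(normalized count + 1), with the variance following the mean, for 14639 genes with a mean of at least 10. The scale understates the change of low genes. Adjustment was Benjamini-Hochberg over all genes tested, at 0.05. edgeR 4.0.16 and DESeq2 1.42.0 ran on recovered reads. All 10 members passed the filter. GC content came from GENCODE M21 transcripts (99.87% of genes), and trends were fitted with mgcv 1.9.3. Members and 19 gene lists were chosen with earlier results of these data known. Named genes were all members, a panel of 20 genes and the 5 closest to Fos; list genes with an unadjusted p under 0.05 were added after their values were seen. Some of these genes are not reported here. Fits were tested on simulated data that held no outlying library and no GC trend, so that test does not cover the departure of irinotecan replicate 1.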

Additional observations from a re-analysis of the deposited data

How the results depend on the processing

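Over 20 alternatives for each of the 10 members, 190 of 200 fold changes kept their direction and side of the threshold. Fosb, near 0, turned to -0.0403 with estimated sample weights, -0.0609 by edgeR and -0.0614 by DESeq2 without irinotecan replicate 1, and ranged from -0.0629 to 0.106 with single libraries left out. Jun turned to 0.0617 after subtracting the trend on GC content and length and ranged from -0.25 to 0.0168 with single libraries left out. Ier3 alone gained a call: 1 member was called by DESeq2, with all libraries and without irinotecan replicate 1. Genes called over the table were 0 by limma, 52 with estimated sample weights, 46 by DESeq2, 5 by edgeR and 157 by DESeq2 without irinotecan replicate 1 (chosen after seeing the data), and 0 to 2 by limma with single libraries left out. The cause of these differences was not tested. The median over members ranged from -0.72 to -0.27 with single libraries left out, irinotecan replicate 1 giving the smallest size, and was -0.30 with estimated sample weights. With the replicate block, 0 genes were called and the median stayed at -0.56, and the replicate numbers did not pair the samples (correlations of same-numbered deviations -0.114, -0.00869 and -0.213). Depth limits Atf3 most, with 28 reads in its lowest library.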
